A study of Homo sapiens with 8 samples.

Results

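Each gene had an RNA level bound to the translation initiation factor subunit eIF3d and a level in the whole-cell input, and their ratio was compared between cells kept without glucose and cells kept in complete medium. The value described for a gene is the log2 ratio of immunoprecipitate (IP) to input without glucose minus the same ratio in complete medium, called the ratio difference. The genes are the 4157 whose mean deposited RPKM (reads relative to exon length and library size) over the 8 libraries was at least 5, out of 57978 genes listed for both media. Of these, 3464 were nuclear protein-coding genes and 693 were pseudogenes, non-coding RNAs, small RNAs and mitochondrially encoded genes. KLRG2 and SENP3 lay just inside this limit, at a mean of 5.01 RPKM each and ratio differences of 0.09 and 0.16, and RBM19 and DXO lay just outside it, at ratio differences of -0.46 and 0.33.

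The cells were HEK293T, a human embryonic kidney line, in which the labels name an eIF3d-TEV construct, eIF3d with a cleavage site for TEV protease. The glucose-free groups spent 48 h in glucose-free DMEM with 10% dialyzed FBS and the complete groups 48 h in DMEM with 10% FBS, so effects of glucose and of serum dialysis cannot be told apart. RNA was joined to protein in the cells by ultraviolet light, eIF3d was taken up on anti-HA beads, and the protease then freed it from the other eIF3 subunits. There were 4 groups of 2 libraries each from polyadenylated RNA: the glucose-free IP, the glucose-free input, the complete IP and the complete input. All 4 groups carried the construct, no IP from cells lacking it was analysed here, and the labels do not call the numbered replicates separate cultures. The p-values below may therefore rest on a technical spread between libraries alone.

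The eIF3 complex joins the small ribosomal subunit and brings it to mRNAs. Its subunit eIF3d can itself grip the cap at the start of certain mRNAs, of which JUN is the best known, in place of the general cap-binding protein eIF4E. Cap recognition by eIF4E depends on mTOR, whose activity drops when nutrients run short, and the study asked which mRNAs eIF3d holds when glucose is absent. A ratio difference compares how much of a gene's RNA was recovered with eIF3d relative to how much was present. In bulk libraries fewer cells carrying an RNA and less RNA per cell cannot be told apart.

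The glucose-free IPs had 8656921 and 12034186 recovered reads and their inputs 33996875 and 43400905, while the complete IPs had 24596456 and 21216047 and their inputs 31708998 and 19490714. Replicates correlated across the 4157 genes with r = 0.983 in the glucose-free IPs and 0.995 in the glucose-free inputs, against 0.874 in the complete IPs and 0.955 in the complete inputs. The mitochondrial rRNAs took 0.615% and 0.401% of reads in the glucose-free IPs and 49.4% and 50.7% in the glucose-free inputs, against 1.27% and 10.7% in the complete IPs and 39.4% and 26.8% in the complete inputs. Complete IP replicate 2 thus stood apart from replicate 1 in mitochondrial RNA. Of 8 HEK293T markers 4 to 8 reached 1 RPKM in a library, and none was at 0 in any. Among 20 marker genes of other tissues at most 3 did, and 2 to 11 of them were at 0. The summed level of these 20 markers was 3.08 and 5.23 RPKM in the glucose-free IPs and 2.71 and 2.91 RPKM in the glucose-free inputs, against 10.5 and 7.61 RPKM in the complete IPs and 11.8 and 7.47 RPKM in the complete inputs, and its part in the results was not tested.

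Most genes did not pass the threshold. Across the 3464 coding genes the glucose-free ratio and the complete ratio correlated with r = 0.890 and rho = 0.880, a description over genes that share the same libraries. The ratio difference passed the threshold (limma, Benjamini-Hochberg adjusted p under 0.05 over 10100 fitted genes) upward in 111 of 4157 genes, or 2.67%, and downward in 107, or 2.57%. These genes are called gained and lost below. Over all 10100 fitted genes, low ones included, 508 passed in either direction, or 5.03%. Before adjustment, 1152 genes had p under 0.05. The median ratio difference was 0.22 over all members, 1.80 over the gained and -2.95 over the lost. Ratios are relative, because each library was scaled to the same median before the log. The mean RPKM limit runs over all libraries, so a gene can reach it through a single group, whose high level also moves its ratio difference. For example, MYH14, MYO6 and BCAR1 reached it through the glucose-free IPs, and MACF1 and HNRNPR through the complete IPs.

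**Figure D1:**
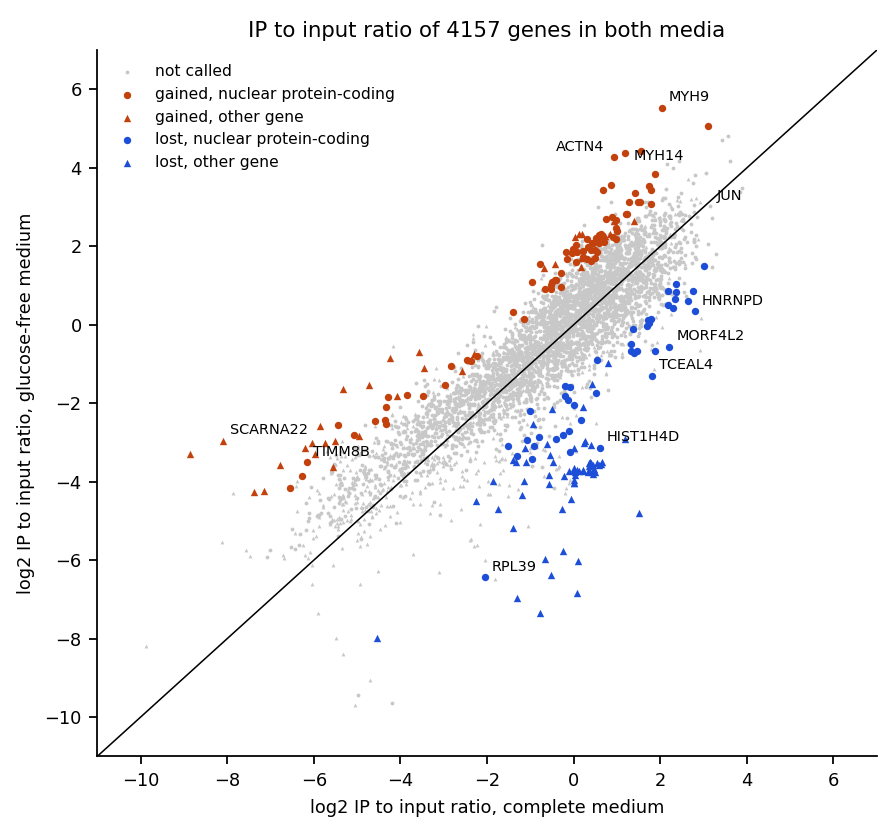
Log2 IP to input ratio in glucose-free medium (vertical axis) against complete medium (horizontal axis), 1 point per gene for all 4157 genes, means of 2 libraries, with the line of equality. Gained genes (111) lie above the line and lost genes (107) below it, and most points follow the line.

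Gained genes made up 50.9% of all calls, and this split moved with the scaling. They made up 94.9% with RPKM as deposited (1664 gained and 89 lost), 72.4% with quantile normalization (636 and 243), 68.9% with upper quartile scaling (168 and 76) and 67.7% with centring after the log (371 and 177). The median of all members moved to 1.12, 0.40, 0.42 and 0.41 under these 4 settings. Of the 111 gained genes, 47 also passed with pseudocounts of 0.5 and 0.1 and with voom on reads recovered from the RPKM, 35 of them coding. Of the 107 lost genes, 32 did, 14 of them coding. The p-values rest on a spread shared by all groups, although their replicates lay unequally close. The median log2 gap between replicates was 0.14 in the glucose-free IPs and 0.09 in the glucose-free inputs. It was 0.40 in the complete IPs and 0.51 in the complete inputs. Leaving out a library changes that shared spread. Counts of calls with 1 library left out, given below for some lists, therefore do not measure how far the calls rest on its values. The median of all members was 0.25 without glucose-free IP replicate 1, 0.19 without IP replicate 2, 0.24 without input replicate 1 and 0.20 without input replicate 2. For the complete libraries it was 0.25, 0.19, 0.18 and 0.23 in the same order. No gene called here passed in the opposite direction under any of these settings.

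A ratio can change through the IP, the input or both. Changes of level between media are given on the scaled values, so their sign can differ from that of the RPKM. Among the 79 gained coding genes the IP level was higher without glucose in 74 and the input level lower in 75, with both at once in 70. The IP was the larger part in 44. Among the 43 lost coding genes the IP level was lower in 35 and the input level higher in 25, with both at once in 17, and the IP was the larger part in 31. Gained coding genes thus drew on both parts about equally, with medians of 1.002 for the IP change and -0.75 for the input change. Lost coding genes had medians of -1.58 for the IP change and 0.34 for the input change.

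**Figure D2:**
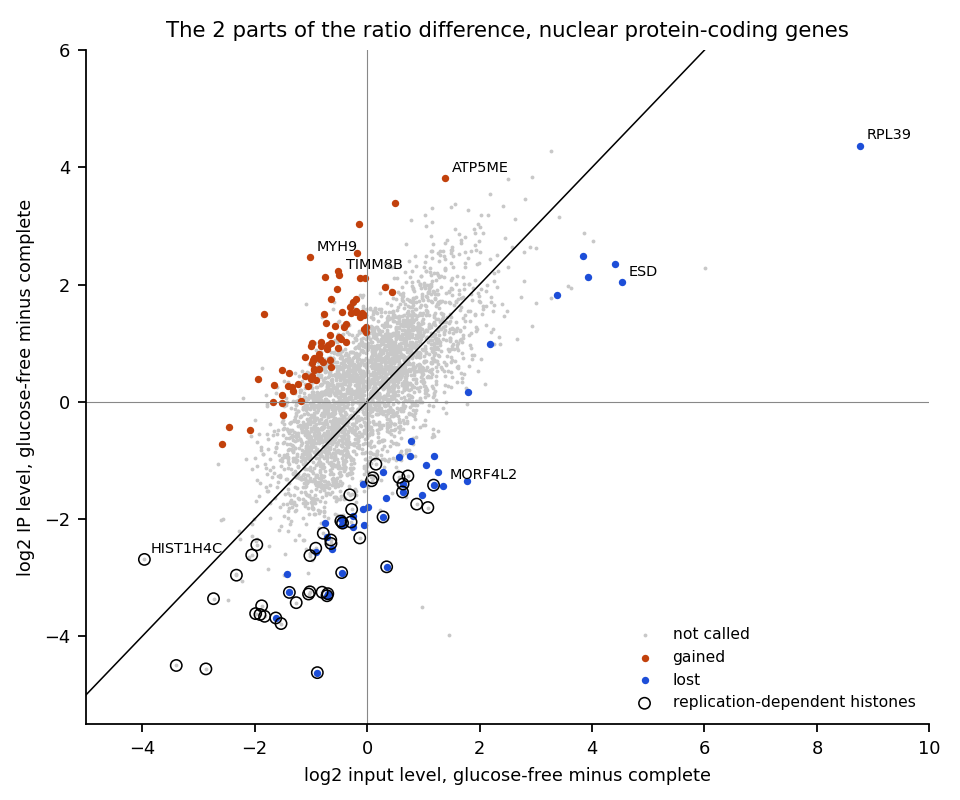
Change of the input level (horizontal axis) and of the IP level (vertical axis) between glucose-free and complete medium, log2, for the 3464 coding genes, with replication-dependent histones circled. Gained genes lie above and to the left of the line of equal change, lost genes below and to the right, and the histones lie low on the IP axis.

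None of the mRNAs that the study's question centres on passed the threshold as fitted here, and 3 of them did under another setting. JUN, the transcription factor gene (chr1:58780788-58784327, minus strand, GRCh38, GENCODE 29), had 357 and 521 RPKM in the glucose-free IPs and 6.95 and 7.67 in the glucose-free inputs, against 232 and 248 in the complete IPs and 5.18 and 12.02 in the complete inputs. Its ratio difference was -0.13 ± 0.47 (SE, limma adjusted p = 0.879), with a 95% interval of -1.20 to 0.94. Its IP RPKM was higher in both glucose-free libraries than in both complete ones, while the ratio difference lay near 0, and its sign turned with RPKM as deposited, centring and upper quartile scaling. ATF4, a transcription factor of the integrated stress response, had 612 and 818 RPKM in the glucose-free IPs and 62.0 and 63.1 in the glucose-free inputs, against 285 and 282 in the complete IPs and 114 and 89.2 in the complete inputs, with a ratio difference of 0.88 ± 0.57 (limma adjusted p = 0.339). It passed upward with RPKM as deposited (1.999, adjusted p = 0.0205) and with quantile normalization (1.65, adjusted p = 0.0350).

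EIF3D, the gene of the tagged protein, had 147 and 196 RPKM in the glucose-free IPs and 34.3 and 35.0 in the glucose-free inputs, against 317 and 211 in the complete IPs and 36.5 and 50.3 in the complete inputs. Its ratio difference was -1.41 ± 0.47 (limma adjusted p = 0.109), and it passed downward with no intensity trend (adjusted p = 0.0473). Reads from the construct cannot be told from those of the endogenous copy. LARP1, a protein that binds mRNAs of the translation machinery, had 85.1 and 105 RPKM in the glucose-free IPs and 2.01 and 1.98 in the glucose-free inputs, against 151 and 181 in the complete IPs and 7.52 and 14.7 in the complete inputs, and its ratio difference was 0.33 ± 0.40. Both its levels were lower without glucose, and the ratio moved less than its error. For RPTOR, the scaffold of mTOR complex 1, the ratio difference was -0.37 ± 0.40, and for MTOR, its kinase, -0.69 ± 0.45. The sign of LARP1 turned with quantile normalization, and that of RPTOR with a pseudocount of 0.1 and with voom, while with quantile normalization RPTOR passed downward (-1.43, limma adjusted p = 0.0469). The stress kinase gene EIF2AK4 and the growth regulator gene BTG1 stayed under the mean RPKM limit.

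**Figure D3:**
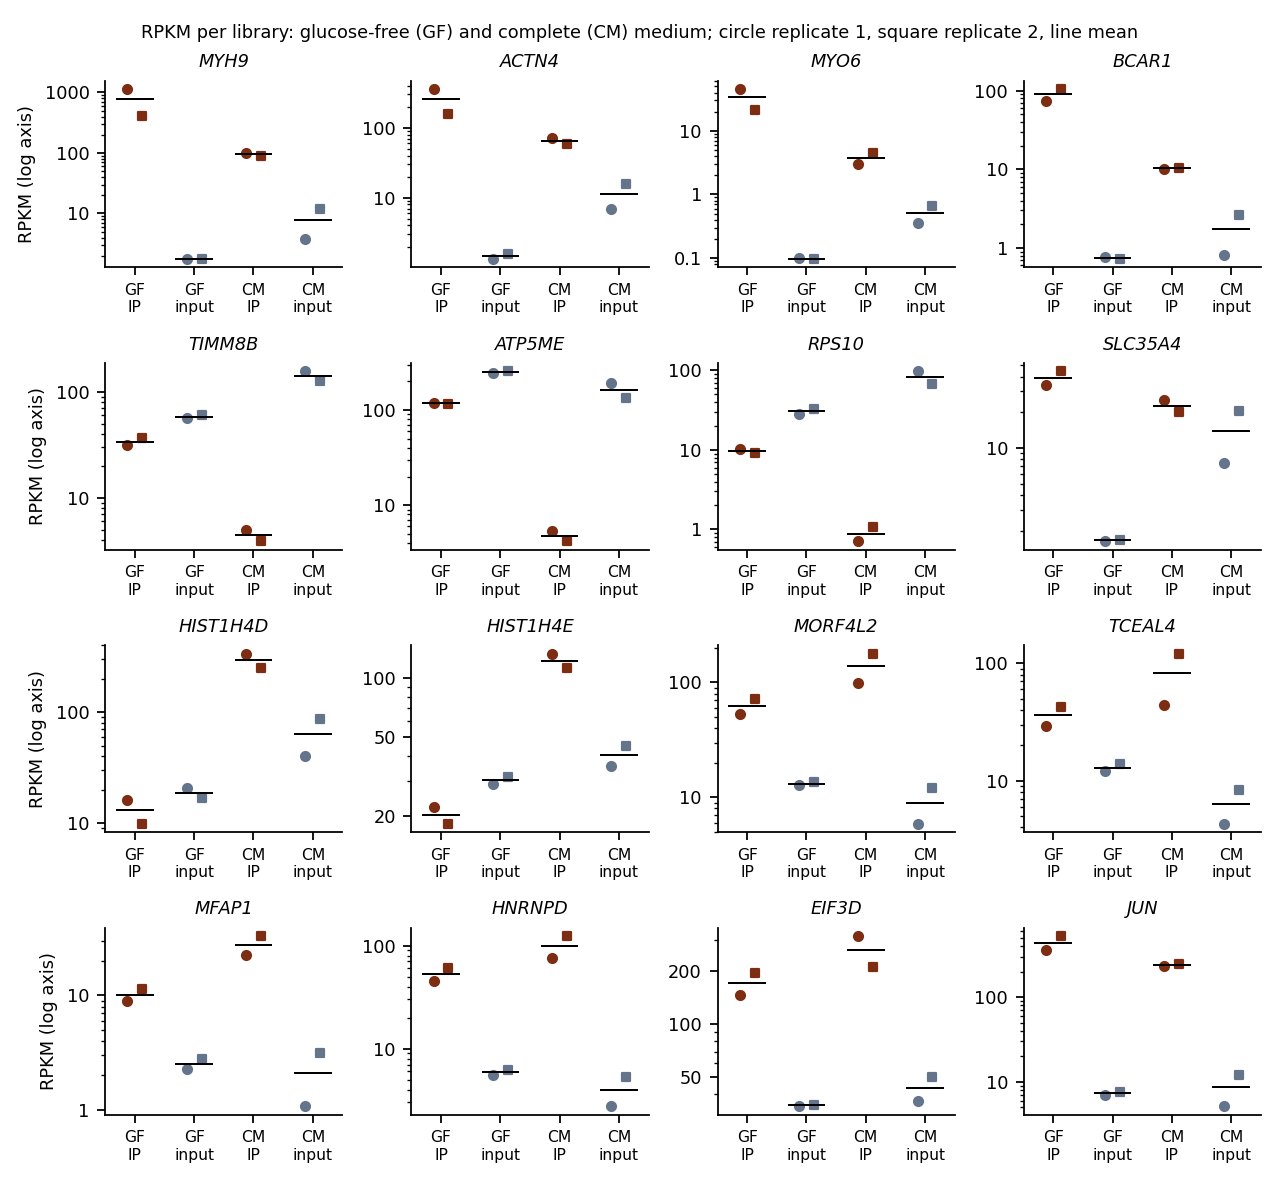
RPKM of 16 genes in each library (log axis), with circles for replicate 1, squares for replicate 2 and a line at the group mean, in the order glucose-free IP, glucose-free input, complete IP, complete input. MYH9 has 1140.0 and 409.8 RPKM in the glucose-free IPs against 101 and 89.6 in the complete IPs, and HIST1H4D 16.3 and 9.85 against 336 and 251.

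The 3 largest coding gains were in genes of the actomyosin cytoskeleton, which builds contractile fibres and the membrane skeleton. MYH9, which encodes the nonmuscle myosin IIA heavy chain (chr22:36281277-36388067, minus strand), had 1140.0 and 409.8 RPKM in the glucose-free IPs and 1.77 and 1.77 in the glucose-free inputs, against 101 and 89.6 in the complete IPs and 3.73 and 11.9 in the complete inputs. Its ratio difference was 3.49 ± 0.77 (SE, limma adjusted p = 0.0408), and it did not pass with a pseudocount of 0.1. ACTN4, an alpha-actinin that crosslinks actin filaments (chr19:38647649-38731583, plus strand), had 359 and 159 RPKM in the glucose-free IPs and 1.33 and 1.57 in the glucose-free inputs, against 71.3 and 58.9 in the complete IPs and 6.85 and 15.5 in the complete inputs. Its ratio difference of 3.34 ± 0.62 (adjusted p = 0.0254) drew on both parts, with an input change of -1.84 and an IP change of 1.4998. For both genes, all glucose-free IP values lay above all complete IP values and all glucose-free input values below all complete input values.

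MYH14, another nonmuscle myosin heavy chain, had 148 and 65.5 RPKM in the glucose-free IPs and 0.393 and 0.304 in the glucose-free inputs, against 10.7 and 5.402 in the complete IPs and 0.458 and 1.07 in the complete inputs. Its gain of 3.18 ± 0.60 (adjusted p = 0.0269) came almost wholly from the IP, where the change was 3.04. DBN1, the actin-binding protein drebrin, gained 2.89 ± 0.67 (adjusted p = 0.0473), with 461 and 206 RPKM in the glucose-free IPs and 1.81 and 1.59 in the glucose-free inputs, against 38.2 and 74.0 in the complete IPs and 4.59 and 6.06 in the complete inputs. It did not pass with pseudocounts of 0.5 and 0.1. PPP1R9B, the actin-binding scaffold neurabin-2, had 239 and 213 RPKM in the glucose-free IPs and 0.602 and 0.622 in the glucose-free inputs, against 85.4 and 88.4 in the complete IPs and 2.15 and 3.18 in the complete inputs, a gain of 1.97 ± 0.35 (adjusted p = 0.0216). Its glucose-free replicates lay close together.

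Of the 33 measured genes in the list of actomyosin, spectrin and cytolinker genes, 5 were gained (15.2%, against 2.67% of all members), 1 was lost and 26 lay above 0, with a list median of 0.71. MYH10, the heavy chain of nonmuscle myosin IIB, did not pass at 1.94 ± 0.74 (adjusted p = 0.141). The lost gene was MACF1, a giant linker of actin and microtubules, at -1.53 ± 0.36 (adjusted p = 0.0478). Its levels were 8.08 and 4.76 RPKM in the glucose-free IPs and 0.0975 and 0.0928 in the glucose-free inputs, against 22.8 and 28.5 in the complete IPs and 0.406 and 0.506 in the complete inputs. MACF1 did not pass with pseudocounts of 0.5 and 0.1, with voom or once length and GC trends were removed. For MYH9, ACTN4, MYH14 and DBN1, glucose-free IP replicate 1 was more than 2 times replicate 2. Without that library none of the 33 passed and the list median was 0.43. None passed either without glucose-free input replicate 1 or 2, where the median was 0.72 and 0.65, and 3 were gained without IP replicate 2. The list had 15 gained with RPKM as deposited.

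Beside these stood genes of adhesion and transport. MYO6, an actin motor that moves toward the minus end of filaments (chr6:75749192-75919537, plus strand), had 45.4 and 21.4 RPKM in the glucose-free IPs and 0.1005 and 0.0970 in the glucose-free inputs, against 3.05 and 4.46 in the complete IPs and 0.363 and 0.666 in the complete inputs. Its gain was 2.74 ± 0.49 (adjusted p = 0.0216). As for MYH9, glucose-free IP replicate 1 was the higher one, by 1.20 on the log2 scale. BCAR1, the adhesion scaffold p130Cas (chr16:75228187-75268053, minus strand), had 74.9 and 105 RPKM in the glucose-free IPs and 0.766 and 0.723 in the glucose-free inputs, against 10.1 and 10.5 in the complete IPs and 0.818 and 2.64 in the complete inputs. Its gain of 2.72 ± 0.41 (adjusted p = 0.0126) came mostly from the IP, where the change was 2.54, and both glucose-free replicates were high.

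SLC35A4, which encodes a member of the nucleotide-sugar transporter family (chr5:140564456-140569103, plus strand), changed mainly in its input. It had 33.7 and 44.2 RPKM in the glucose-free IPs and 1.62 and 1.68 in the glucose-free inputs, against 25.4 and 20.1 in the complete IPs and 7.41 and 20.6 in the complete inputs. The ratio difference was 2.32 ± 0.45 (adjusted p = 0.0299), made of an input change of -1.93 and an IP change of 0.39. SCAP, the sterol sensor that escorts the SREBP transcription factors, gained 1.77 ± 0.42 (adjusted p = 0.0494), with 59.4 and 70.3 RPKM in the glucose-free IPs and 2.39 and 2.20 in the glucose-free inputs, against 34.2 and 18.5 in the complete IPs and 6.88 and 7.86 in the complete inputs. It was the only called gene among the 18 measured for cholesterol and fatty acid synthesis, whose median was 0.62. The zinc finger gene ZNF865 gained 1.85 ± 0.41 (adjusted p = 0.0409), again with a higher IP and a lower input. SCAP and ZNF865 did not pass with a pseudocount of 0.1, with voom or once length and GC trends were removed.

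TIMM8B, ATP5ME, NDUFAF8, ATP5MC1 and TMEM160 gained from log2 ratios below 0 in both media. TIMM8B, a chaperone of the mitochondrial intermembrane space (chr11:112084800-112086798, minus strand), had 31.1 and 36.3 RPKM in the glucose-free IPs and 56.8 and 59.7 in the glucose-free inputs, against 4.95 and 3.88 in the complete IPs and 155 and 127 in the complete inputs. Its log2 ratio was -3.51 without glucose, against -6.17 in complete medium, a difference of 2.66 ± 0.47 (adjusted p = 0.0215). ATP5ME, a subunit of ATP synthase (chr4:672436-674338, minus strand), had 119 and 116 RPKM in the glucose-free IPs and 242 and 254 in the glucose-free inputs, against 5.36 and 4.16 in the complete IPs and 194 and 133 in the complete inputs. It gained 2.42 ± 0.56 (adjusted p = 0.0467) although its input level was also higher without glucose, by 1.39, as the IP change was 3.81.

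NDUFAF8, an assembly factor of complex I, gained 2.46 ± 0.42 (adjusted p = 0.0198), with 38.1 and 41.3 RPKM in the glucose-free IPs and 21.6 and 20.5 in the glucose-free inputs, against 7.92 and 5.69 in the complete IPs and 53.8 and 50.5 in the complete inputs. ATP5MC1, a subunit of the rotating ring of ATP synthase, had 20.2 and 24.1 RPKM in the glucose-free IPs and 22.5 and 26.1 in the glucose-free inputs, against 6.14 and 3.77 in the complete IPs and 63.9 and 77.9 in the complete inputs, a gain of 2.27 ± 0.39. In these genes the glucose-free and complete IP values did not overlap. TMEM160, a small membrane protein gene, showed the same pattern with a gain of 2.89 ± 0.66 (adjusted p = 0.0458), from 123 and 154 RPKM in the glucose-free IPs and 116 and 117 in the glucose-free inputs, against 14.2 and 4.83 in the complete IPs and 164 and 119 in the complete inputs. It did not pass with a pseudocount of 0.1.

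In the list of nuclear-encoded oxidative phosphorylation genes, which build the respiratory chain and ATP synthase, 4 of 63 were gained (6.35%, against 2.67% of all members) and 1 was lost, 46 lay above 0 and the median was 0.65. These counts leaned on the setting, with 41 gained with RPKM as deposited, 33 with quantile normalization, 15 with centring and 28 without complete input replicate 2, but none without any 1 of the glucose-free libraries and 1 without complete IP replicate 2. The list median lay between 0.57 and 1.86 with all libraries and between 0.21 and 1.12 with 1 left out. The gained genes were ATP5ME, ATP5MC1, NDUFA2 (2.14) and NDUFB8 (1.80), the last pair subunits of complex I. Mitochondrial ribosomal proteins had no call among 54 and a median of 0.27, against 28 gained and a median of 1.41 with RPKM as deposited and 13 gained and a median of 0.90 with quantile normalization. Cytosolic ribosomal proteins had 67 of 76 genes above 0 and a median of 0.76, with 1 gained and 1 lost. With RPKM as deposited 50 were gained (median 1.96), with quantile normalization 44 (median 2.09) and without complete input replicate 2 19 (median 1.295), while the median was 0.27 without complete input replicate 1. The gained gene was RPS10, a protein of the small subunit (chr6:34417454-34426125, minus strand), with 10.2 and 9.06 RPKM in the glucose-free IPs and 27.9 and 33.1 in the glucose-free inputs, against 0.707 and 1.06 in the complete IPs and 96.8 and 67.4 in the complete inputs. Its log2 ratio was -4.15 without glucose, against -6.54 in complete medium, a difference of 2.39 ± 0.50 (adjusted p = 0.0359). Ribosomal protein genes have many near-identical copies, and reads shared with copies, or for RPS10 with the overlapping readthrough gene RPS10-NUDT3, are uncertain.

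Of the 43 lost coding genes 11 were replication-dependent histones, which package newly copied DNA. Their mRNAs lack a poly(A) tail and close with a conserved stem-loop, whereas histone variant genes used outside S phase carry a tail. Of 45 measured replication-dependent histone genes, 11 were lost (24.4%, against 2.57% of all members) and none gained, and 44 lay below 0, with a median of -1.77. Before adjustment 37 had p under 0.05. The 8 polyadenylated histone variants had no call and a median of 0.27. The libraries were made from polyadenylated RNA, so the values of replication-dependent histones come from whatever part of their RNA entered such libraries. Near-identical histone copies can also share reads.

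The stem-loop was located in the annotated transcripts of lost histone genes, shown because it is the feature that sets these mRNAs apart. GENCODE 29 transcripts on GRCh38 were searched on the transcript strand for GG, any 2 bases, CTT, any base, T, any base, AG, any 2 bases and CC. This core of 16 bases is in capitals, with 5 flanking bases in lower case, 5′ to 3′.
HIST1H4E: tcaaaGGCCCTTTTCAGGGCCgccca
HIST1H4H: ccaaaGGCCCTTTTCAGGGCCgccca
HIST1H2AG: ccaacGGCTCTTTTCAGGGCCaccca
HIST1H2BC: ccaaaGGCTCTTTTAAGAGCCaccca
HIST3H2A: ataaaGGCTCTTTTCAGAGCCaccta
HIST1H2AE: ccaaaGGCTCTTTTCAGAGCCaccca
H2AFX: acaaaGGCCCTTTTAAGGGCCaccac

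The first 5 of these genes were lost. They lie at chr6:26204996-26205021 (plus strand) for HIST1H4E, chr6:26285126-26285151 (minus strand) for HIST1H4H, chr6:27133510-27133535 (plus strand) for HIST1H2AG, chr6:26123467-26123492 (minus strand) for HIST1H2BC and chr1:228457364-228457389 (minus strand) for HIST3H2A. The annotated transcripts did not end at the core. They ran on for 1022 bases in HIST1H4E, 18 in HIST1H4H, 1761 in HIST1H2AG, 116 in HIST1H2BC and 390 in HIST3H2A. HIST1H2AE, at chr6:26217412-26217437 (plus strand), holds the same core letters as HIST3H2A and did not pass, at -0.63. H2AFX, a variant gene that makes both stem-loop and polyadenylated mRNA, holds the letters at chr11:119094893-119094918 (minus strand) and lay at 0.36.

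The letters were found in 25 of 45 replication-dependent histone genes (55.6%), in 28 of 3419 other coding genes (0.819%) and in 1.53% of all 3464 coding genes. On the opposite strand they occurred in 1 of the 45 and in 0.673% of other coding genes. None of the 32 lost coding genes outside this histone list held them. The share of 0.819% makes that likely for any set of this size, so it does not set these lost genes apart. Histone genes with the letters had 7 of 25 lost and a median of -1.77, and those without them in an annotated transcript had 4 of 20 lost and a median of -1.78. An annotated transcript can end before the stem-loop. HIST1H4D and HIST1H3A, where the letters were not found, have annotated exons of only 312 and 411 bases. The 20 genes are therefore not shown to lack the stem-loop, and this split cannot compare genes with and without it.

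HIST1H4D, an H4 gene (chr6:26188765-26189076, minus strand), had 16.3 and 9.85 RPKM in the glucose-free IPs and 20.7 and 16.8 in the glucose-free inputs, against 336 and 251 in the complete IPs and 40.1 and 87.2 in the complete inputs. Its log2 ratio was -3.13 without glucose, against 0.61 in complete medium, and the ratio difference was -3.73 ± 0.54 (adjusted p = 0.0106). HIST1H4E had 22.1 and 18.2 RPKM in the glucose-free IPs and 28.9 and 31.3 in the glucose-free inputs, against 132 and 112 in the complete IPs and 35.8 and 44.9 in the complete inputs, a loss of -3.16 ± 0.42 (adjusted p = 0.00749). In both H4 genes the IP was the larger part, and there every glucose-free value was below every complete value.

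HIST1H2AG, an H2A gene, had 7.29 and 6.87 RPKM in the glucose-free IPs and 7.77 and 6.20 in the glucose-free inputs, against 80.2 and 64.3 in the complete IPs and 12.3 and 31.4 in the complete inputs, with -2.59 ± 0.46 (adjusted p = 0.0216). HIST3H2A, another H2A gene, had 34.1 and 46.0 RPKM in the glucose-free IPs and 38.4 and 39.5 in the glucose-free inputs, against 87.9 and 83.9 in the complete IPs and 25.6 and 32.4 in the complete inputs, with -2.60 ± 0.40 (adjusted p = 0.0133). Its scaled input level was higher without glucose, by 1.18. That of HIST1H4E was higher by 0.35 only after scaling, as its RPKM lay lower in both glucose-free inputs than in both complete inputs. That of HIST1H4D was lower, at -0.88. The linker histone gene HIST1H1C had 108 and 82.2 RPKM in the glucose-free IPs and 157 and 137 in the glucose-free inputs, against 708 and 451 in the complete IPs and 289 and 401 in the complete inputs, with -2.46 ± 0.57 (adjusted p = 0.0473). HIST1H3A (-2.57), HIST1H2BN (-2.25), HIST1H4H (-2.04) and HIST2H2BF (-2.06) were also lost. HIST1H1C did not pass with a pseudocount of 0.1, nor HIST1H3A with voom.

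Over the whole histone list the median IP change was -2.61 and the median input change -0.71. The median log2 ratio was -2.42 without glucose, against -0.58 in complete medium. The gene above 0 was HIST1H4C, whose input differed most: it had 31.9 and 19.3 RPKM in the glucose-free IPs and 66.7 and 65.9 in the glucose-free inputs, against 118 and 156 in the complete IPs and 1428 and 2176 in the complete inputs. Its ratio difference of 1.27 ± 0.57 did not pass (adjusted p = 0.194). The list median stayed below 0 under every setting tried, between -2.54 and -0.91 with all libraries and between -2.21 and -1.55 with 1 library left out. The calls were less steady, with 25 lost with quantile normalization, 20 once length and GC trends were removed, 12 with voom, 8 with a pseudocount of 0.1, 3 with no filter and 5 with RPKM as deposited. Leaving out 1 glucose-free library gave 0 to 3 lost genes in the list, with 0 without IP replicate 2 and 3 without input replicate 2, and leaving out 1 complete library gave 9 to 27. The list of DNA replication and cell cycle genes had no call among 32 and a median of -0.17, a sign that turned with RPKM as deposited, centring and upper quartile scaling.

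**Figure D4:**
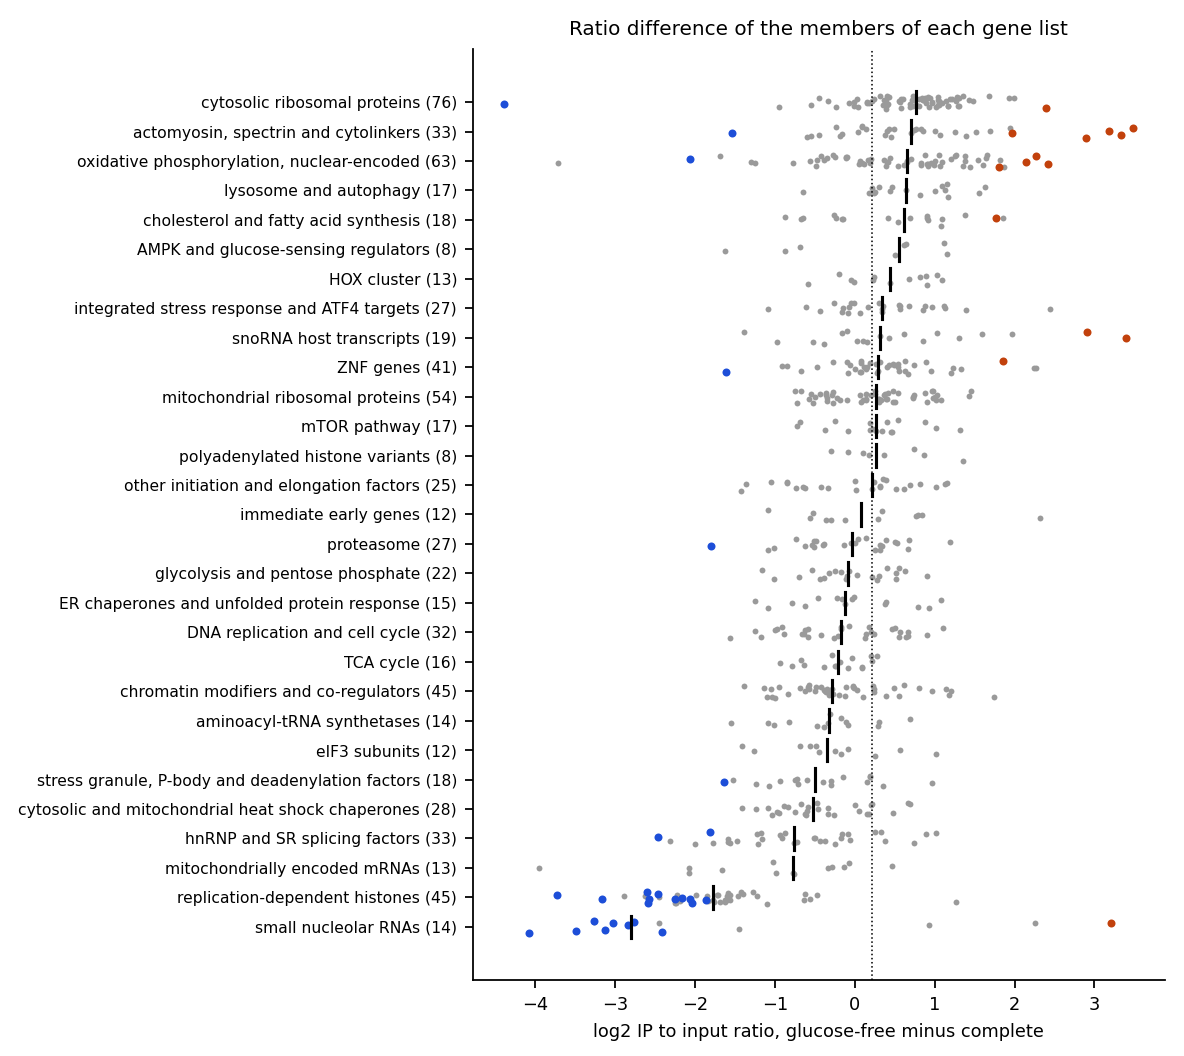
Ratio difference (log2, glucose-free minus complete) of each measured gene in the lists with at least 8 measured genes, 1 row per list, with a black tick at the list median and a dotted line at the median of all members, 0.22. Gained genes are red and lost genes blue, and the replication-dependent histones lie to the left of the line with a median of -1.77.

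Other lost coding genes included TCEAL4, MORF4L2, MFAP1 and HNRNPD. TCEAL4, a member of a family related to the elongation factor TFIIS (chrX:103576231-103587736, plus strand), had 29.1 and 42.6 RPKM in the glucose-free IPs and 12.1 and 13.8 in the glucose-free inputs, against 44.0 and 120.2 in the complete IPs and 4.30 and 8.37 in the complete inputs. Its ratio difference was -3.12 ± 0.64 (adjusted p = 0.0342). MORF4L2, a subunit of histone acetyltransferase complexes (chrX:103675496-103688158, minus strand), had 52.8 and 71.5 RPKM in the glucose-free IPs and 12.7 and 13.5 in the glucose-free inputs, against 98.7 and 177 in the complete IPs and 5.88 and 12.01 in the complete inputs, with -2.77 ± 0.52 (adjusted p = 0.0253). In both genes the IP level was lower and the input level higher without glucose, and no group of values overlapped with its counterpart in the other medium. With 2 libraries per group such separation is common: the ratios of the media did not overlap in 64.2% of all 4157 members.

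MFAP1, a spliceosome component (chr15:43804492-43824802, minus strand), had 8.86 and 11.3 RPKM in the glucose-free IPs and 2.27 and 2.76 in the glucose-free inputs, against 22.5 and 33.0 in the complete IPs and 1.08 and 3.11 in the complete inputs, with -2.56 ± 0.44 (adjusted p = 0.0198). HNRNPD, the AU-rich element binding protein AUF1 (chr4:82352498-82374503, minus strand), had 45.3 and 60.9 RPKM in the glucose-free IPs and 5.50 and 6.23 in the glucose-free inputs, against 75.9 and 123 in the complete IPs and 2.76 and 5.25 in the complete inputs, with -2.46 ± 0.45 (adjusted p = 0.0241). HNRNPR, a related RNA-binding protein, was lost at -1.81 ± 0.43 (adjusted p = 0.0490). These were the 2 calls among 33 hnRNP and SR splicing factor genes (6.06%, against 2.57% of all members), of which 27 lay below 0, with a median of -0.77 that turned to 0.28 with RPKM as deposited. In that list 12 were lost without complete IP replicate 1 and 10 without complete input replicate 2, but none without any 1 of the glucose-free libraries, and 4 were gained with RPKM as deposited. CNOT1, the scaffold of the CCR4-NOT deadenylase, was the 1 loss among 18 stress granule, P-body and deadenylation genes, at -1.64 ± 0.36 (adjusted p = 0.0402). The zinc finger gene ZNF622 was lost mainly through the input, where the change was 1.79, with -1.61 ± 0.33 (adjusted p = 0.0342). HNRNPR, CNOT1 and ZNF622 did not pass with a pseudocount of 0.1 or with voom.

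A few lost coding genes were nearly missing from the complete libraries. RPL39, a protein of the large ribosomal subunit, had 178 and 162 RPKM in the glucose-free IPs and 2106 and 2159 in the glucose-free inputs, against 0.855 and 13.1 in the complete IPs and 9.10 and 6.59 in the complete inputs. Its ratio difference of -4.39 ± 0.99 (adjusted p = 0.0437) therefore sets a well-measured ratio against one from a few RPKM, and it did not pass with a pseudocount of 0.1 (adjusted p = 0.155) or with voom (adjusted p = 0.203). ESD, an esterase, had 10.2 and 10.8 RPKM in the glucose-free IPs and 12.6 and 14.5 in the glucose-free inputs, against 0.167 and 0.942 in the complete IPs and 0.482 and 0.347 in the complete inputs. The same held for UQCRB, a subunit of complex III (-2.06), and PSMA4, a subunit of the proteasome core (-1.80). ESD, UQCRB and PSMA4 did not pass with a pseudocount of 0.1, with voom or with RPKM as deposited, where PSMA4 stood near 0. UQCRB and PSMA4 also failed with a pseudocount of 0.5 and with quantile normalization.

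Outside the coding genes 32 were gained and 64 lost of 693, and 23 of the lost were small nuclear RNAs, out of 32 measured (71.9%, against 9.24% lost of the 693). The U1 gene RNU1-1, part of the splicing machinery, had 49.3 and 46.1 RPKM in the glucose-free IPs and 163 and 61.4 in the glucose-free inputs, against 134 and 153 in the complete IPs and 38.5 and 27.2 in the complete inputs, with -4.26 ± 0.75 (adjusted p = 0.0216). Other U1 copies gave close values, since their reads cannot be told apart, so the 23 small nuclear RNAs do not count as 23 separate observations. Small nucleolar RNAs, which guide rRNA modification and processing, had 8 of 14 lost (57.1%), 1 gained and a median of -2.80. Among the lost, SNORD3A, SNORD3B-1, SNORD3B-2 and SNORD3C are copies of U3 that can share reads, so they do not count as separate observations. With voom and with a pseudocount of 0.1 the list had 4 lost, with no filter none, and without glucose-free IP replicate 1, IP replicate 2, input replicate 1 or complete input replicate 1 it had 2, 1, 1 and 2, with medians below 0 throughout. SNORA73B (chr1:28508559-28508762, plus strand) had 101 and 33.0 RPKM in the glucose-free IPs and 82.9 and 50.04 in the glucose-free inputs, against 86.9 and 68.9 in the complete IPs and 10.5 and 10.1 in the complete inputs, with -4.08 ± 0.78 (adjusted p = 0.0286). SNORD3A, the U3 RNA, was lost at -3.49 ± 0.66 (adjusted p = 0.0275). For both, the input was the larger part, at 3.34 and 2.52. RNAs of this size are not polyadenylated as a rule, and 15 members, small RNA genes and pseudogenes for the most part, had under 3 reads in all 4 complete libraries, 10 of which were lost and 1 gained.

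The largest losses of all were mitochondrial tRNAs. The tRNA gene MT-TV had 10.0 and 34.9 RPKM in the glucose-free IPs and 406 and 303 in the glucose-free inputs, against 0.589 and 47.1 in the complete IPs and 3.20 and 2.23 in the complete inputs, with -6.92 ± 1.61 (adjusted p = 0.0473). The complete IP replicates were far apart, and the value was -9.09 without complete IP replicate 1 and -4.75 without replicate 2. MT-TP (-6.57 ± 1.42) and MT-TF (-6.28 ± 1.29) followed, and MT-TF was listed at 0 in glucose-free IP replicate 1. None of these 3 passed with a pseudocount of 0.1, with voom or once length and GC trends were removed. The 13 mitochondrially encoded mRNAs had no call and a median of -0.77, which turned with RPKM as deposited and quantile normalization and ranged from -2.40 to 0.87 with 1 library left out. Complete IP replicate 2 held 15.2% mitochondrial reads in all, against 1.84% in replicate 1, and the part of that library in these values was not tested beyond leaving it out.

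Among non-coding gains, the processed pseudogene AC099789.1 had 36.9 and 58.9 RPKM in the glucose-free IPs and 62.4 and 75.8 in the glucose-free inputs, against 1.73 and 1.003 in the complete IPs and 628 and 358 in the complete inputs, with 5.57 ± 0.62 (adjusted p = 0.00328). Reads of such a copy are uncertain, and the complete IPs held 6 and 3 of them. SCARNA22, a guide RNA of Cajal bodies, had 2.77 and 1.99 RPKM in the glucose-free IPs and 5.65 and 4.42 in the glucose-free inputs, against 1.95 and 2.26 in the complete IPs and 339 and 344 in the complete inputs. Its gain of 5.14 ± 0.40 (adjusted p = 0.000496) came from the input, where the change was -5.23, with an IP change of -0.09. That IP change is poorly measured, as SCARNA22 had 3 and 3 reads in the glucose-free IPs and 6 and 6 in the complete IPs. SNHG9, a snoRNA host transcript, gained 3.39 ± 0.51 (adjusted p = 0.0123), with 17.0 and 23.4 RPKM in the glucose-free IPs and 5.29 and 5.56 in the glucose-free inputs, against 5.31 and 3.94 in the complete IPs and 47.1 and 30.1 in the complete inputs. SNHG25 also gained, at 2.90 ± 0.69, and it did not pass with voom. They were the 2 calls among 19 snoRNA host transcripts, with a median of 0.31. AL022342.1 (3.70), SNORA80B (3.21) and the vault RNA VTRNA1-3 (2.71) also gained, from low values in which each had at least 1 IP library listed at 0. They and SCARNA22 reached the mean RPKM limit only through their complete inputs, whose high level also makes the ratio difference positive. SNORA80B and VTRNA1-3 did not pass with pseudocounts of 0.5 and 0.1 or with voom, and with a pseudocount of 0.1 VTRNA1-3 stood at 1.80 (adjusted p = 0.394).

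The lists of energy and stress genes held no call as fitted here. No gene passed among 22 of glycolysis and the pentose phosphate pathway (median -0.08), 16 of the TCA cycle (-0.21), 27 of the integrated stress response and ATF4 targets (0.33), 15 ER chaperones (-0.13), 28 heat shock chaperones (-0.53), 17 around mTOR (0.27), 8 of AMPK and glucose sensing (0.55), 12 eIF3 subunits (-0.35), 25 other initiation and elongation factors (0.21), 14 aminoacyl-tRNA synthetases (-0.32) or 45 chromatin modifiers (-0.29). Each of the negative medians in these lists turned positive with RPKM as deposited. With that setting 9 integrated stress response genes, 7 genes around mTOR and 7 other initiation and elongation factors were gained. With quantile normalization 11 chromatin modifiers and 3 AMPK and glucose-sensing genes were lost, and with centring 6 chromatin modifiers. The integrated stress response median was -0.16 without complete IP replicate 2. Lysosome and autophagy genes had 16 of 17 above 0, a median of 0.64 and no call as fitted here, against 12 gained with RPKM as deposited and 5 with quantile normalization. Immediate early genes, JUN among them, had 6 of 12 above 0 and a median of 0.08. The HOX genes, positional regulators of the embryo, had 9 of 13 above 0, a median of 0.44 and no call. Of 41 ZNF genes (median 0.29) ZNF865 was the gain and ZNF622 the loss, and of 27 proteasome genes (median -0.04) PSMA4 was the loss. The 3 measured small RNA polymerase III transcripts had VTRNA1-3 as the 1 gain, and the 2 casein kinase 2 genes and 3 La-related protein genes had no call. A gene under the threshold is not shown to be the same in both media: for JUN, the interval allows a change of up to 1.20 downward and 0.94 upward.

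The ratio difference moved with base composition. Across the 3464 coding genes it correlated with the GC content of the exons at r = 0.454 and rho = 0.469, and with exon length at r = -0.146 and rho = -0.138, as descriptions over genes of the same libraries. Sorted by GC into 5 bins of equal size, the medians were -0.37, -0.06, 0.28, 0.44 and 0.73 from the lowest to the highest GC. The lowest bin held 5 gained and 28 lost genes and the highest 27 gained and 1 lost. Gained coding genes had a median GC content of 59.4%, lost ones 45.5% and all coding genes 55.3%. With the GC and length trends of each library removed, 97 of the 111 gained and 84 of the 107 lost genes still passed. Of the called coding genes described above, DBN1, PPP1R9B, SCAP, ZNF865, MACF1, HNRNPR and UQCRB did not.

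**Figure D5:**
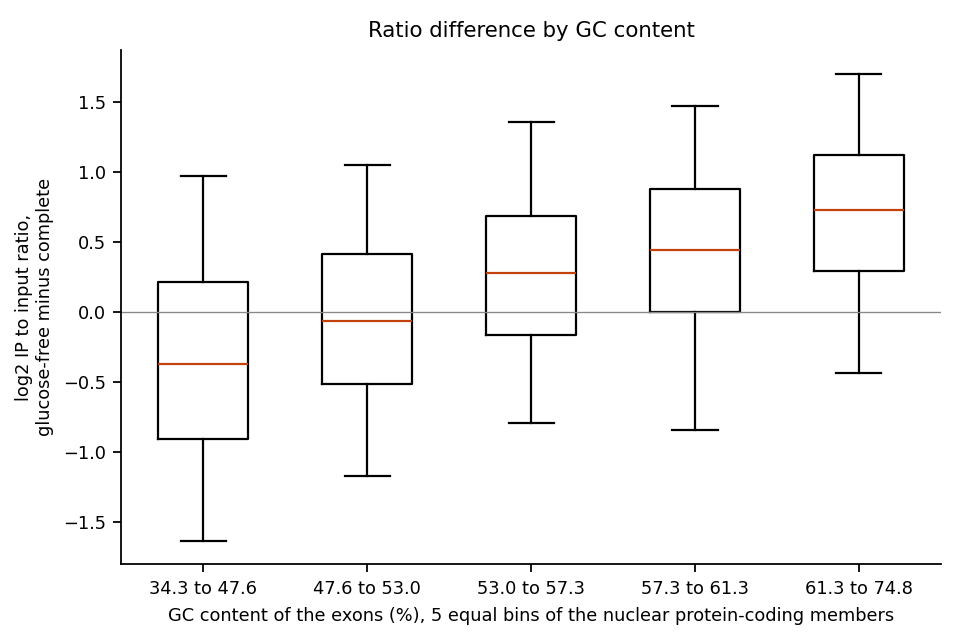
Ratio difference (log2, glucose-free minus complete) of the 3464 coding genes in 5 equal bins of exon GC content, as boxes with the median and quartiles and whiskers at percentiles 5 and 95. The median climbs from -0.37 in the lowest bin to 0.73 in the highest.

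Most gains kept their sign in each medium. Of the 79 gained coding genes, 46 had a log2 ratio above 0 in both media, meaning a scaled IP level above the scaled input level, 17 had one below 0 in both, and 16 were above 0 without glucose and below 0 in complete medium. Of the 43 lost coding genes, 13 were above 0 in both media, 16 below 0 in both, and 14 were below 0 without glucose and above 0 in complete medium. BCAR1, MYO6 and the myosins belong to the first kind, TIMM8B, ATP5ME, NDUFAF8, ATP5MC1, TMEM160 and RPS10 to the genes below in both media, and SLC35A4 to those that crossed. Among the losses HNRNPD and CNOT1 stayed above, HIST1H4E stayed below, and HIST1H4D, TCEAL4, MORF4L2 and MFAP1 crossed.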

How the data were processed

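The authors deposited RPKM values in 2 tables, 1 per medium, with 57978 genes listed for glucose-free medium and 57998 for complete medium, and 57978 were joined on the Ensembl gene identifier. Identifiers that stood under more than 1 symbol (4 in the glucose-free table, 3 in the complete table) were used 1 time each. The submitters' processing notes name cutadapt, HISAT2, SAMtools and the build GRCh38. What counted the reads, on which annotation and strand, and how reads with several places were treated is not given in the sources used here. Each ratio lies within a table, and its difference runs across the tables, whose normalization may differ.

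The fit took 10100 genes, those reaching a mean RPKM of 1. Each library was scaled to a common median over them, and log2(scaled RPKM + 1) was fitted with limma 3.58.1 in R 4.3.3 as 4 group means with an intensity trend. The contrast was IP minus input without glucose, less IP minus input in complete medium. P-values were two-sided and adjusted by Benjamini and Hochberg over all fitted genes, with a threshold of 0.05. Changes are on the log2(scaled RPKM + 1) scale, which can shrink or enlarge those of low genes (RPL39 and ESD are smaller with a pseudocount of 0.1). Whole reads were recovered from the RPKM with exon lengths of GENCODE 29, as 97.5% to 98.0% of low values per library came out whole within 0.02, up to 50 reads. They gave library totals, with a floor of 3 reads equal to 0.0691 to 0.347 RPM (RPKM without the length), which covers counting error only. The fit was tested on simulated data. Where simulated ratios were made equal between media on a nearly raw scale, it called some members that had not been changed, and more of them than with smaller pseudocounts.

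The members, the 33 gene lists and the tests were chosen with earlier results of these data known, and no list was tested. Named genes were the 12 largest coding gains and losses and the 3 largest others past the threshold whose ratios did not overlap between media, 8 genes of the study, and the 2 largest called members per direction of each list. Genes outside it, such as PPP1R9B, MYH10 and RNU1-1, were chosen after their values were seen. Alternatives covered scaling, pseudocount, filters, trend, a replicate block, length and GC trends and leaving out each library. Voom on recovered reads, scaling over coding genes and 2 other choices of members were added after seeing the data. Same-numbered libraries were checked for pairing: their deviations correlated at -0.02 without glucose and 0.18 in complete medium, so the numbers were not used as pairs.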

Additional observations from a re-analysis of the deposited data

Results flagged for a closer look

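In 7 called genes named by the rule, the log2 IP to input ratio had opposite signs in the 2 media, in every library, and the difference itself passed the limma test. SLC35A4 was above 0 without glucose and below 0 in complete medium, with a ratio difference of 2.32. The other 6 were below 0 without glucose and above 0 in complete medium: SNORA73B at -4.08, HIST1H4D at -3.73, TCEAL4 at -3.12, MORF4L2 at -2.77, MFAP1 at -2.56 and HNRNPR at -1.81. Because libraries are scaled to a common median, the sign of a ratio is relative to the other genes. SLC35A4 and SNORA73B drew most of their difference from the input, with input changes of -1.93 and 3.34. HIST1H4D drew most of it from the IP, with an IP change of -4.62. With groups of 2 libraries no single library could be tested as standing apart.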

How the results depend on the processing

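With 111 gained and 107 lost genes as reported, the counts were 1664 and 89 with RPKM as deposited, 371 and 177 with centring after the log, 636 and 243 with quantile normalization, 168 and 76 with upper quartile scaling, 187 and 160 with length and GC trends removed, 76 and 55 with a pseudocount of 0.1, and 3 and 10 with no filter on low genes. Among choices made after seeing the data, voom on recovered reads gave 67 and 40, and members with at least 10 reads in every library gave 91 and 64. Leaving out 1 library gave 5 to 576 gained and 11 to 383 lost, and the cause was not tested. The replicate block, with numbers that the deviations did not bear out as pairs, gave 64 gained and 80 lost, 48 and 70 of them among the genes called without it. The other full settings stayed within 1.5 times of the reported counts.

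The gene JUN turned positive with RPKM as deposited (0.955), centring (0.2439) and upper quartile scaling (0.0972), and ranged from -0.4548 to 0.1991 with 1 library left out. LARP1 turned negative with quantile normalization (-0.7505). PSMA4 turned positive with RPKM as deposited (0.01895). The gene RPTOR turned positive with a pseudocount of 0.1 (0.08559) and with voom (0.1953), and ranged from -0.7857 to 0.03639 with 1 library left out. Of 1071 values of named genes under alternatives, 686 kept direction and side of the threshold, 371 fell below it, 4 passed it and 10 turned sign. Of 693 list medians, 636 moved by less than the spread between replicates.

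Depth was lowest in the glucose-free IPs. Of the 4157 members, 108 had under 3 reads in at least 1 library, 27 of them lost and 10 gained, and 1743 had a mean input under 5 RPKM in both media, where the pseudocount weighs most.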

Other observations

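The further called coding genes named here were picked out after their values were seen and belong to no common list. The ubiquitin ligase TRIP12 (-1.69) was lost, as were the deubiquitinase USP9X (-2.03), the protocadherin-like FAT1 (-1.89) and the axon guidance receptor ROBO1 (-1.52). HIRIP3 (-2.12) and ANP32E (-1.68), both histone chaperones, were lost as well. ANP32E did not pass with voom, with the replicate block or once length and GC trends were removed. Among the gains were the small MAF transcription factors MAFG (1.94) and MAFK (1.60), the transcriptional co-repressor SKI (1.95), the kidney regulator SIX2 (1.66), the metallothionein MT2A (2.06), the mitochondrial carrier UCP2 (2.06), the vesicle protein VAMP2 (1.98) and the selenoprotein SELENON (2.03). USP9X and HIRIP3, and MAFG, SKI, UCP2, VAMP2 and SELENON, also passed with pseudocounts of 0.5 and 0.1 and with voom.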
